A study of Mus musculus with 12 samples.

Results

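The uninjured colon of Parp1-/- mice was compared with the uninjured colon of wild-type mice. The comparison took the 6 arrays of mice on plain drinking water out of the 12 arrays of the study: 3 arrays labelled wild type and 3 labelled Parp1-/-, each from a separate mouse. No array of a mouse given dextran sulfate sodium, the agent that injures the colon in the rest of the study, was used. All 21314 genes that had a probe set naming exactly 1 gene entered, and the probe sets of a gene were averaged. Both groups were 6 to 8 weeks old, were kept in a conventional animal house screened for common mouse infections, and drank water with 0% dextran sulfate sodium throughout. The labels give neither the construction of the Parp1 allele nor the strain, the sex or whether the groups were littermates. The whole colon was washed and frozen before RNA was taken, so epithelium, muscle wall, nerves, vessels and immune cells were measured together, and fewer cells of a type and less RNA per cell cannot be told apart.

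Parp1 codes for the main poly(ADP-ribose) polymerase of the nucleus. It binds broken DNA, uses NAD to attach chains of ADP-ribose to itself and to nearby proteins, and so draws in repair factors such as Xrcc1, while Parg removes the chains. The protein is also known as a cofactor of transcription, including that of inflammatory genes controlled by NF-kappaB. In the colon, crypt stem cells renew an epithelium of absorptive colonocytes and mucus-secreting goblet cells, which keeps bacteria from the tissue with mucus, tight junctions and antimicrobial proteins. The comparison asks how this tissue differs without Parp1 before any injury.

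Each value is a log2 value that the authors' table holds centred on the median of the probe set over all 12 arrays. It follows a gene from array to array but ranks no gene against another, so the presence of the defining markers of colon could not be checked. Log base and direction of that scale are not stated in any source at hand, and larger values on a base 2 scale were taken to mean more RNA. A difference is Parp1-/- minus wild type, with its standard error (SE, n = 3 mice per group), and a call means a limma p under 0.05 after adjustment over all 21314 genes. The number of arrays limits the precision: the median SE of a difference was 0.21.

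Parp1 itself was at -0.41, 1.15 and 0.53 in wild-type water arrays 1, 2 and 3 and at -0.03, -0.08 and -0.01 in the Parp1-/- arrays. The array labelled wild-type water 1 lay below all 3 Parp1-/- arrays, so Parp1 went against the label there, and the groups overlapped. The difference was -0.47, with p = 0.4 in a two-sided exact permutation test over 20 permutations, whose smallest possible p is 0.1, and a limma adjusted p of 0.318. Without the array labelled wild-type water 1 it was -0.88, and without wild-type water 2 it was -0.10. After subtraction of the housekeeping mean, described next, it was -1.93 and called (limma adjusted p = 8.07e-05). That subtraction lowers every difference: the median over all genes was then -1.53, and 16421 of 21314 genes were called lower. The call after it therefore says little about Parp1 in particular. Since no source at hand places the probes against the altered stretch of the gene, Parp1 checks the labels only weakly.

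The wild-type arrays stood apart from the Parp1-/- arrays in genes that are not specific to the colon. The mean of 16 housekeeping genes, which nearly all cells use, was at -1.82, -0.99 and -1.18 in wild type and at 0.10, 0.17 and 0.12 in Parp1-/-. Receptor genes of smell (olfactory and vomeronasal, 1054 genes) averaged 0.46, 0.40 and 0.43 against 0.01, -0.16 and -0.14. The spread over probe sets, as an SD, was 0.871, 0.666 and 0.723 against 0.256, 0.394 and 0.366. This split follows genotype exactly, so it and the genotype cannot be told apart here, and what it contributes to any difference below was not tested. Among the Parp1-/- arrays, numbers 2 and 3 had smooth muscle genes at means of 2.31 and 2.23 against -0.29 in number 1, and the wild-type arrays were at -0.63, -0.18 and -0.39. Results are therefore given on the deposited scale and set beside 3 alternatives: quantile normalization, subtraction of the housekeeping mean of each array, and Parp1-/- water 1 as the only Parp1-/- array (its spread then taken as that of the wild-type arrays). Of 168 called genes given by name below, 144 kept sign and call after quantile normalization and 109 after the subtraction. The subtraction lowers every difference, so genes called lower could hardly fail it, and the 109 includes them. With Parp1-/- water 1 alone most of the 168 were no longer called.

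**Figure D1:**
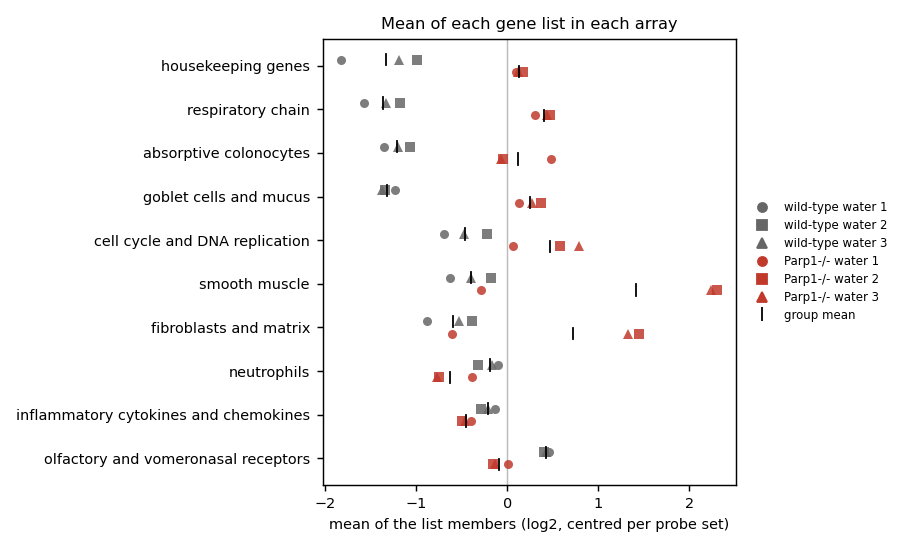
Mean of the members of 10 gene lists in each of the 6 arrays, in log2 units centred per probe set; grey symbols are wild-type mice, red symbols Parp1-/- mice, and black ticks group means. Housekeeping genes lie between -1.82 and -0.99 in the wild-type arrays, and smooth muscle genes are at 2.31 and 2.23 in 2 of the 3 Parp1-/- arrays only.

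Across all genes, 4519 were higher in Parp1-/- colon (21.2%) and 2562 lower (12%), and the median difference was -0.07. All 3 Parp1-/- arrays lay above all 3 wild-type arrays for 5582 genes (26.2%) and below them for 6222 (29.2%). Of the called genes 63.8% were higher, a share that was 77.4% when the arrays were scaled to equal spread and 3.18% after the housekeeping mean was subtracted, which shifted every difference by -1.46 and left a median difference of -1.53 over all genes. Genes called with the same sign on the deposited scale, after quantile normalization and after that subtraction numbered 520 higher (2.44%) and 1448 lower (6.79%). The subtraction moves every difference down and gave 16421 genes called lower. A gene called lower on the deposited scale can thus hardly fail it, and for such genes only quantile normalization is a check. The counts depended on which Parp1-/- arrays entered: there were 2834 higher and 312 lower without Parp1-/- water 2, and 2920 higher and 290 lower without Parp1-/- water 3. What the high smooth muscle genes of arrays 2 and 3 contribute to this was not tested. Leaving out Parp1-/- water 1 gave 1541 lower. With Parp1-/- water 1 alone 801 genes were higher (3.76%) and 1 was lower (0.00469%).

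The largest differences joined genes of quite different work. Adamdec1, a metalloproteinase made by mucosal macrophages and fibroblasts, was at -2.37, -1.78 and -2.10 in wild type and at 0.29, 2.54 and 2.41 in Parp1-/-, a difference of 3.83 ± 0.56 with an adjusted p of 0.00254. The arrays did not overlap, and the muscle-rich Parp1-/- arrays 2 and 3 were well above array 1. Postn, the matrix protein periostin, had the same shape, at -1.61, -0.37 and -1.81 against -0.08, 2.92 and 3.16, and its difference was 3.26 ± 0.83 (adjusted p = 0.0224). Even closer replicates were found for Atad1, an ATPase that pulls misplaced proteins from the mitochondrial outer membrane, at -2.87, -2.62 and -3.30 against 0.40, 0.34 and 0.50, with a difference of 3.34 ± 0.21 (adjusted p = 0.000341). Gstk1, a glutathione transferase of mitochondria and peroxisomes, was at -4.06, -2.44 and -2.66 against 0.33, 0.30 and 0.13. Hmgcs1, which makes HMG-CoA for cholesterol synthesis, was at -3.36, -2.44 and -2.15 against 0.23, 0.52 and 0.94. Both were higher in every Parp1-/- mouse than in any wild-type mouse, by 3.31 ± 0.39 and 3.21 ± 0.33. The same held for Rabggtb, one chain of Rab geranylgeranyl transferase, at 3.44, for the complex I subunit Ndufb9 at 3.31, for the SUMO protease Senp6 at 3.26, for Rep15, a Rab15 partner, at 3.24, and for Acap2, an Arf6 regulator, at 3.21. All 10 stayed called and higher after quantile normalization and after the subtraction. With Parp1-/- water 1 alone Adamdec1 differed by 2.37 and Postn, no longer called, by 1.18.

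In the other direction differences were smaller on the deposited scale, an order that the subtraction turned: Bcr then differed by -3.06 and Adamdec1 by 2.37. Slpi, a secreted inhibitor of neutrophil elastase that also kills microbes, was at -0.67, 0.45 and 0.09 in wild type and at -0.93, -1.95 and -1.72 in Parp1-/-, a difference of -1.49 ± 0.36 (adjusted p = 0.0176). Its lowest wild-type array and its highest Parp1-/- array lay close together. Bcr, a regulator of small GTPases, was at 1.22, 1.66 and 1.28 against -0.23, -0.06 and -0.34, with a difference of -1.60 ± 0.18 (adjusted p = 0.00091) and a wide gap between the groups. Trim15, a ubiquitin ligase of the TRIM family, was at -0.63, -0.05 and 0.05 against -1.93, -1.68 and -1.55, a difference of -1.51 ± 0.22. Myod1, the transcription factor that sets the skeletal muscle fate, was at 1.17, 1.04 and 1.0 against 0.26, -0.94 and -0.66. For Supt4b (-1.73), Eif4a3l1 (-1.54), Rnase2b (-1.63), Mrgpra2b (-1.5), Pramel16 (-1.68) and Pramel22 (-1.46), which belong to families with near-identical copies, the gene behind the signal is uncertain. These 10 genes were lower after quantile normalization too, and after the subtraction, which moves every difference down and so is hardly a check here. None of them was called with Parp1-/- water 1 alone, where Slpi differed by -0.89, Supt4b by -0.99 and Myod1 by -0.81.

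**Figure D2:**
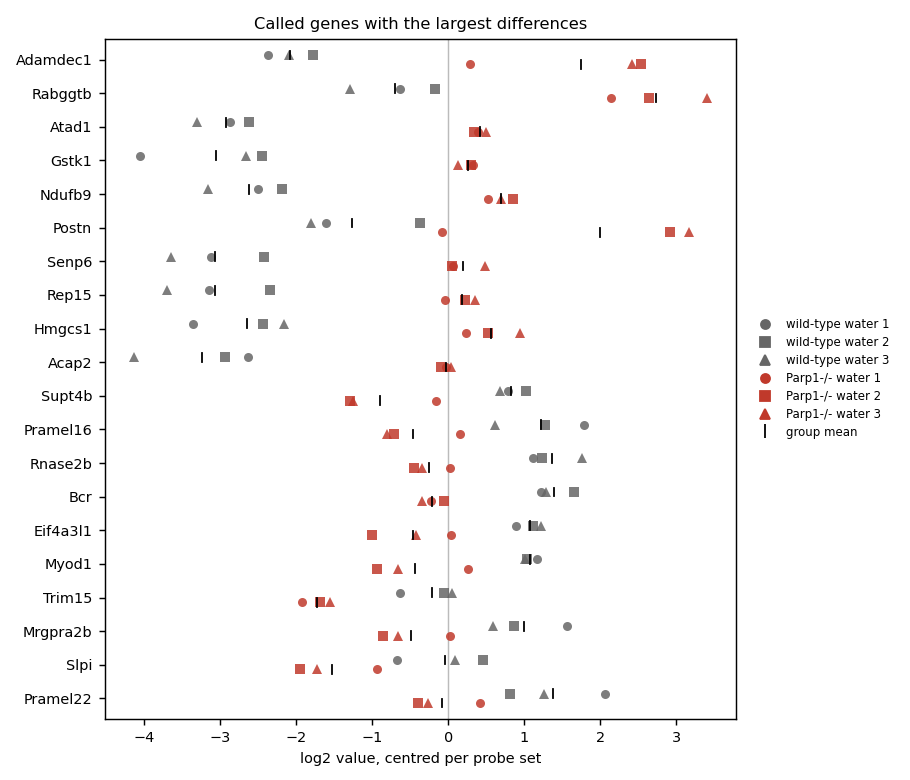
Log2 values, centred per probe set, of the 10 genes with the largest called difference in each direction in every array; grey symbols are wild-type mice, red symbols Parp1-/- mice, black ticks group means. The groups do not overlap for any of the 20 genes, and Adamdec1 and Postn are lower in Parp1-/- array 1 than in arrays 2 and 3.

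Genes of the differentiated epithelium were higher in Parp1-/- colon. Of 28 absorptive colonocyte genes 20 were called higher and none lower (background 21.2% and 12% of all genes), with a median difference of 1.52 beside -0.07 over all genes, and 19 were higher without the array labelled wild-type water 1. Car1, the carbonic anhydrase that defines mature colonocytes, was at -1.74, -1.93 and -2.15 in wild type and at 0.16, -0.01 and -0.04 in Parp1-/-, a difference of 1.98 ± 0.17 (adjusted p = 0.000424). Vil1, which bundles actin in microvilli, was at -2.15, -2.51 and -2.53 against 0.28, 0.04 and 0.05 (2.52 ± 0.18), and Slc6a14, an amino acid transporter, differed by 2.61 ± 0.17. The brush border cadherin Cdhr2 differed by 2.37 and the bacteria-repelling Lypd8 by 2.09. With Parp1-/- water 1 as the only Parp1-/- array, 14 of the 28 were still called higher, where 3.76% of all genes were. The list median was 0.94 after quantile normalization and 0.06 after the housekeeping mean was subtracted, so the colonocyte genes stood about level with the housekeeping genes, whose own median difference was 1.55. Car1, Cdhr2 and Lypd8 were not called after the subtraction.

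Goblet cells and mucus gave 19 of 22 genes higher and none lower (background 21.2% and 12% of all genes). The median was 1.83, and 18 were higher without the array labelled wild-type water 1. Muc2, the gel-forming mucin that builds the mucus layer, was at -2.19, -1.99 and -2.40 in wild type and at 0.08, 0.18 and 0.17 in Parp1-/-. The difference was 2.33 ± 0.17, with an adjusted p of 0.000344, and each group was tight. Muc13, a mucin anchored in the cell membrane, was at -2.44, -2.43 and -2.46 against 0.19, -0.02 and -0.13. Klk1, a kallikrein protease, differed by 2.66 ± 0.21 and the chemokine Ccl6 by 2.69 ± 0.30. With Parp1-/- water 1 as the only Parp1-/- array the median was 1.71, beside -0.09 over all genes. This list kept a positive median under all 3 scalings, at 1.27 after quantile normalization and 0.37 after the subtraction. Of its genes 4 were called higher in all 3, where 2.44% of all genes were.

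Other epithelial cell types had smaller shares of called genes, to be read against 21.2% higher and 12% lower over all genes. Crypt stem cell genes had 5 of 15 higher and a median of 0.23 (-1.24 after subtraction of the housekeeping mean), with Lrig1, a brake on growth factor receptors, at 1.91 ± 0.23 and the crypt surface protein Prom1 at 1.72 ± 0.20. Lgr5, the defining stem cell receptor, was at 0.15, 0.46 and 0.00 in wild type and at 0.20, 0.47 and 0.47 in Parp1-/-, and was not called (0.18 ± 0.18). Enteroendocrine genes had 2 of 20 higher and 1 lower: the granule protein Chgb was at 1.72 and the transcription factor Neurod1 at -0.81. Chga, their defining marker, was at -2.65, 0.25 and -0.41 against -0.09, 0.29 and -0.04, so its lowest value was that of 1 wild-type array, and it was not called. Tuft cell genes had 3 of 16 higher and 1 lower, led by the signalling regulator Rgs13 at 1.83, with the leukotriene enzyme Alox5 lower at -0.99. Tight and adherens junction genes were again mostly higher, 13 of 21 with none lower and a median of 1.16, which turned to -0.30 after that subtraction. Among them were Ctnna1, the actin link of cadherins, at 2.58, the intestinal cadherin Cdh17 at 2.30, Epcam at 2.06 and the tight junction protein Cldn8 at 2.05. None of Lrig1, Prom1, Chgb, Rgs13, Epcam and Cldn8 was called after the subtraction.

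Energy metabolism gave the 2 highest medians of all lists on the deposited scale, though not when the arrays were scaled to equal spread, where smooth muscle was highest, nor without the array labelled wild-type water 1, where goblet cells and smooth muscle passed fatty acid oxidation. For the respiratory chain 24 of 27 genes were higher and none was lower (background 21.2% and 12% of all genes), and the median was 2.05. Of the 27 genes 10 were called higher under all 3 scalings, where 2.44% of all genes were. Cox4i1, a subunit of cytochrome c oxidase, was at -2.45, -1.52 and -2.29 in wild type and at 1.06, 1.04 and 0.71 in Parp1-/-, a difference of 3.02 ± 0.26 (adjusted p = 0.00044). The complex I subunit Ndufb9, named above, was at -2.50, -2.19 and -3.16 against 0.53, 0.86 and 0.70, and Ndufa4 and Ndufv2 differed by 2.49 and 2.47. Without the array labelled wild-type water 1 the count was again 24, and with Parp1-/- water 1 alone the median was 1.81. The median was 1.47 after quantile normalization and 0.59 after the subtraction.

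Counts for the lists of fat, cholesterol and sugar metabolism are set against 21.2% higher and 12% lower over all genes. Fatty acid oxidation and ketogenesis had 17 of 21 genes higher and none lower, with a median of 1.91. Etfb, which passes electrons from fatty acids to the respiratory chain, was at -2.15, -2.08 and -2.42 against 0.53, 0.60 and 0.76, a difference of 2.85 ± 0.17 (adjusted p = 0.000341). Hadh, Acadl and Acadvl, enzymes of the same cycle, differed by 2.37, 2.34 and 2.29. Fatty acid synthesis had 13 of 21 higher and a median of 1.26, with the desaturase Scd1 at -3.94, -4.22 and -2.79 against -2.54, 0.39 and -0.12. Scd1 differed by 2.90 ± 0.74, and its Parp1-/- array 1 lay near the wild-type arrays. Fasn, Idh1 and Acly differed by 2.42, 2.37 and 2.27. Cholesterol synthesis and uptake had 12 of 17 higher and a median of 1.24, led by Hmgcs1, with Insig1, the feedback regulator of the pathway, at 2.52 and Nsdhl at 2.0. Glycolysis had 6 of 13 higher and a median of 0.88, with Pgk1 at 2.38 and Tpi1 at 1.96. No gene of these lists was lower. The medians of fatty acid synthesis, cholesterol and glycolysis turned to -0.20, -0.22 and -0.58 after the housekeeping mean was subtracted, while that of fatty acid oxidation stayed at 0.45. Scd1 was not called after quantile normalization, and Nsdhl and Tpi1 were not called after the subtraction.

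Genes of redox defence and protein quality followed, with counts to be read against 21.2% higher and 12% lower over all genes. Oxidative stress and glutathione genes had 13 of 21 higher, none lower, and 7 called higher under all 3 scalings, where 2.44% of all genes were. Besides Gstk1 these included both subunits of the enzyme that starts glutathione synthesis: Gclc was at -2.94, -1.67 and -1.86 against 0.48, 0.53 and 0.99, and Gclm at -2.95, -1.75 and -1.87 against 0.18, 0.69 and 0.82. Their differences were 2.82 ± 0.34 and 2.75 ± 0.34, and catalase, Cat, differed by 2.42 ± 0.20. The unfolded protein response and endoplasmic reticulum chaperones had 17 of 21 higher and a median of 1.56, with Hsp90b1 at 2.75, Calr at 2.49, Canx at 2.32 and Ern2, the stress sensor of goblet cells, at 2.10. Proteasome subunits had 20 of 25 higher and a median of 1.52, among them Psmd11 and Psmc6, both at 2.66. The list medians after subtraction of the housekeeping mean were 0.03, 0.10 and 0.06, close to the housekeeping genes themselves. Calr was not called after quantile normalization, nor Ern2 after the subtraction. Cytosolic ribosomal proteins were mixed, with 11 of 24 higher and 2 lower: Rps4x was at 2.60 and Rps16 at -0.90. Their median of 0.39 turned to -1.07 after the subtraction.

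Cell cycle and DNA replication genes had 14 of 24 higher and none lower (background 21.2% and 12% of all genes). Their median of 0.83 turned to -0.63 after subtraction of the housekeeping mean. Mki67, the proliferation marker, was at -1.38, -1.35 and -0.91 in wild type and at 0.46, 0.75 and 1.21 in Parp1-/-, a difference of 2.02 ± 0.24 (adjusted p = 0.00109). Cdk1, the kinase that starts mitosis, was at -1.61, -1.28 and -1.26 against 0.09, 1.14 and 1.37, and Top2a was at -0.76, -0.48 and -1.81 against 0.11, 0.95 and 1.40. Omitting the array labelled wild-type water 1 left 12 of the 24 higher. In all 3 genes Parp1-/- water 1 was the lowest Parp1-/- array but above every wild-type array. With it as the only Parp1-/- array the list median fell to 0.46. Mki67 and Top2a were not called after the subtraction.

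Drug metabolism and conjugation genes had 12 of 21 higher and 3 lower (background 21.2% and 12% of all genes). Their median of 1.29 turned to -0.18 after subtraction of the housekeeping mean. Ces1g, a carboxylesterase, was at -1.55, -0.61 and -0.82 against 1.11, 1.24 and 1.26 (2.20 ± 0.25), and Cyp3a13 and the sulfotransferase Sult1a1 differed by 2.33 and 1.98. Ahrr, the repressor of the aryl hydrocarbon receptor, was lower at -0.81, and so was Mgst1 at -0.78. Of the circadian clock genes 6 of 18 were higher, with a median of 0.23 (-1.23 after subtraction). Clock was at -2.72, -2.07 and -2.02 against 0.06, -0.09 and 0.11, and the nuclear receptor Nr1d2 at -0.71, -0.82 and -0.63 against 0.96, 0.78 and 0.85. Retinoic acid genes had 3 of 19 higher and 1 lower, both below the shares over all genes, with the retinol dehydrogenases Rdh10 at 1.61 and Rdh11 at 1.59. After the subtraction Sult1a1, Nr1d2, Rdh10 and Rdh11 were not called, and after quantile normalization Rdh10, Rdh11 and Mgst1 were not. The labels do not say at what time of day tissue was taken.

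On the deposited scale no relative of Parp1 was called lower in Parp1-/- colon, a direction that turns for the list median after the housekeeping mean is subtracted. Of 25 genes of the PARP family and ADP-ribose turnover 9 were higher (background 21.2%), none was lower (12%), and 13 had all Parp1-/- arrays above all wild-type arrays (26.2%). The median was 0.55 on the deposited scale and -0.91 after the housekeeping mean was subtracted, and no member was called with the same sign under the 3 scalings. Without the array labelled wild-type water 1, 7 were higher and 1 was lower. Macroh2a1, a histone variant that binds ADP-ribose, was at -2.46, -0.32 and -1.41 in wild type and at -0.04, 0.84 and 1.02 in Parp1-/-, a difference of 2.0 ± 0.53 (adjusted p = 0.0248). Tnks2, a tankyrase, was at -2.03, -1.12 and -0.51 against 0.30, 0.81 and 0.69 (1.81 ± 0.37), and Parp4, the vault PARP, at -2.18, -1.48 and -1.34 against -0.08, 0.02 and 0.09 (1.68 ± 0.24). Parg, which degrades the chains, was at -1.07, -0.67 and -1.53 against 0.21, 0.16 and 0.43 (1.36 ± 0.24). The remaining called members were Tiparp at 1.14, the Parp1 cofactor Hpf1 at 0.94, the hydrolase Adprhl2 at 0.86, the antiviral Zc3hav1 at 0.72 and the ADP-ribose hydrolase Oard1 at 0.55. After the subtraction Parg and these 5 genes had differences below 0, and Macroh2a1, Tnks2 and Parp4 were not called. Parp2, the closest relative of Parp1 in break repair, was at -1.12, -0.10 and -0.65 against -0.03, 0.25 and 0.03. Its groups did not overlap, but the difference of 0.70 ± 0.26 was not called (adjusted p = 0.0726).

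Repair genes showed no single direction. In base excision and single-strand break repair 3 of 21 genes were higher and 2 lower (background 21.2% and 12%), with a median of 0.04. Xrcc1, the scaffold that Parp1 draws to breaks, was lower: it was at 1.13, 0.98 and 0.72 in wild type and at 0.00, -0.10 and -0.15 in Parp1-/-, a difference of -1.02 ± 0.17 (adjusted p = 0.00413). Its partner Lig3, which seals the nick, was higher, at -0.95, -1.44 and -1.82 against -0.07, 0.58 and 0.53 (1.75 ± 0.28). Pcna, the replication clamp, was also higher, at 1.92, and Polb at 0.88, while the flap nuclease Fen1 was lower, at -0.72. Xrcc1 and Fen1 were called lower under all 3 scalings, but the subtraction lowers every difference and so hardly checks a lower call. Lig3 and Pcna were not called after the subtraction, and Polb turned to -0.58. Double-strand break repair had 5 of 24 higher, about the 21.2% found over all genes, none lower and a median of 0.41 (-1.05 after subtraction of the housekeeping mean), with the ubiquitin ligases Rnf8 and Rnf168 at 1.12 and 1.08 and the histone H2ax at 0.96, all below 0 after the subtraction. Of the p53 targets 7 of 20 were higher, with a median of 0.71 (-0.75 after subtraction): Cdkn1a, the cell cycle inhibitor p21, was at -1.30, -1.70 and -1.93 against 0.73, -0.51 and -0.23 (1.64 ± 0.33), and Ei24 differed by 2.57. Cdkn1a was not called after quantile normalization or after the subtraction.

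NAD is the substrate of Parp1. Among 25 genes of NAD synthesis, consumption and sirtuins 7 were higher and 4 lower (background 21.2% and 12%), and the median was -0.02. Nampt, the enzyme that recycles nicotinamide into NAD, was at -1.81, -1.73 and -2.68 in wild type and at 0.03, 0.28 and 0.28 in Parp1-/-. The difference was 2.27 ± 0.27, with an adjusted p of 0.00109, and it stayed called under all 3 scalings (0.81 after subtraction of the housekeeping mean). The other higher genes were Nadsyn1 at 1.33, Nadk at 1.30, Nnt at 1.20 and the sirtuins Sirt2 at 1.04, Sirt1 at 1.0 and Sirt7 at 0.55. After the subtraction all 6 were below 0, at -0.13, -0.16, -0.26, -0.42, -0.46 and -0.91 in that order, and after quantile normalization Nadsyn1 was not called. Haao, of the route from tryptophan, was lower at -0.59, as were Nmnat2 at -0.54, the NAD-cleaving Bst1 at -0.51 and Nmrk2 at -0.50. These 4 were named after their values were seen, and Haao, Nmnat2 and Nmrk2 were not called after quantile normalization.

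Genes of inflammation did not share one direction. NF-kappaB subunits and inhibitors had 5 of 17 higher and none lower, and a median of 0.48 that turned to -0.14 after quantile normalization and to -0.98 after subtraction of the housekeeping mean. Rela, the main activating subunit, was at -2.15, -1.07 and -0.99 in wild type and at -0.08, -0.04 and 0.04 in Parp1-/-, a difference of 1.38 ± 0.31. Rel, the lymphoid subunit, was at -2.19, -2.15 and -1.75 against -0.21, -0.85 and -0.83 and differed by 1.40 ± 0.23, a sign that turned after quantile normalization, to -0.14. After the subtraction Rela was at -0.08 and Rel at -0.06. Inflammatory cytokines and chemokines had 7 of 26 lower (background 12%) and 1 higher (21.2%), with a median of -0.32. Il23a, a subunit of the cytokine that sustains Th17 cells, was at 0.65, 0.59 and 0.63 against -0.29, -0.38 and -0.24, a difference of -0.93 ± 0.14 (adjusted p = 0.0032). Il6 was at 0.24, 0.26 and 0.30 against -0.43, -0.64 and -0.52 (-0.80 ± 0.15), and the macrophage chemokine Ccl3 at -0.50, -0.46 and -0.45 against -1.07, -1.57 and -1.47 (-0.90 ± 0.18). In these 3 genes the wild-type arrays lay within a narrow band above all Parp1-/- arrays. The growth factor Csf2 at -0.70, the anti-inflammatory Il10 at -0.60, Il12b at -0.63 and Csf3 at -0.51 were named after their values were seen. All 7 lower genes were also called lower after quantile normalization. They were so after the subtraction too, which lowers every difference and adds little for lower genes. Of all genes 6.79% were called lower under the 3 scalings. The exception was Cxcl13, which draws B cells to lymphoid follicles and was at -1.09, -2.61 and -2.18 against 0.58, -0.23 and 0.44 (2.22 ± 0.40). It was not called after the subtraction. Omitting the array labelled wild-type water 1 left 6 of the 26 lower. With Parp1-/- water 1 alone none was called lower, and Il23a, Il6 and Ccl3 differed by -0.92, -0.70 and -0.60. The receptors of smell had 334 of 1054 lower and a median of -0.52, so lower genes were frequent among them as well.

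Neutrophil genes gave 5 of 17 lower (background 12%) and none higher (21.2%). In 11 of them all Parp1-/- arrays lay below all wild-type arrays, where 29.2% of all genes did. The receptors of smell had 334 of 1054 lower and 731 with all Parp1-/- arrays below, so such genes were frequent there as well. Il1r2, the decoy receptor of interleukin-1, was at 0.53, -0.08 and 0.29 against -0.55, -0.77 and -0.69 (-0.91 ± 0.20). Ngp, a neutrophil granule protein, was at 0.53, 0.49 and 0.36 against -0.20, -0.52 and -0.46 (-0.85 ± 0.16), and Retnlg at 0.10, -0.06 and -0.01 against -0.82, -0.57 and -0.82 (-0.74 ± 0.16). The lectin Clec4d differed by -0.68 and the collagenase Mmp8, named after its value was seen, by -0.56. Each Parp1-/- array was below each wild-type array in these 5 genes. All 5 were called lower after quantile normalization too, while the subtraction, which lowers every difference, could hardly undo a lower call. Ly6g, the defining neutrophil marker, was not called: it was at -2.79, -3.28 and -2.45 against -0.21, -3.70 and -4.83, so 2 Parp1-/- arrays were lowest and 1 was highest. The list median of -0.44 became -1.26 after quantile normalization and -0.33 with Parp1-/- water 1 alone, where none of the 17 genes was called lower and 1 was called higher. Of the 17, 6 were lower without the array labelled wild-type water 1.

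Antimicrobial proteins divided, with 7 of 24 higher and 4 lower (background 21.2% and 12%). Reg3g, a lectin that kills bacteria near the epithelium, was at -2.95, -2.40 and -4.63 in wild type and at -0.81, 0.07 and -0.07 in Parp1-/-, a difference of 3.06 ± 0.54 (adjusted p = 0.00561). Its relative Reg3b was at -3.35, -1.42 and -3.79 against -1.48, -0.72 and 0.34 (2.23 ± 0.67) and Reg4 at -0.08, 0.48 and 0.08 against 1.74, 1.39 and 2.77 (1.80 ± 0.35). Retnlb, a goblet cell protein active against bacteria, was at -0.26, -2.08 and -0.63 against 0.12, 1.77 and 2.07 (2.31 ± 0.61), and Pigr, which carries antibodies into the lumen, differed by 1.52. Reg3a went the other way, at 0.79, 0.42 and 0.07 against -0.41, -0.52 and -0.77 (-0.99 ± 0.22). So did Slpi, given above, Defb1 at -0.77 and the phospholipase Pla2g2a at -0.89; Reg3a, Defb1 and Pla2g2a were named after their values were seen. Reg3g, Reg3b and Reg3a are similar in sequence, so signal between them could be shared. None of the 7 higher genes was called higher under all 3 scalings, and 3 of the 4 lower ones were called lower under all of them. The subtraction lowers every difference, so it is a hurdle for higher genes and hardly for lower ones.

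**Figure D3:**
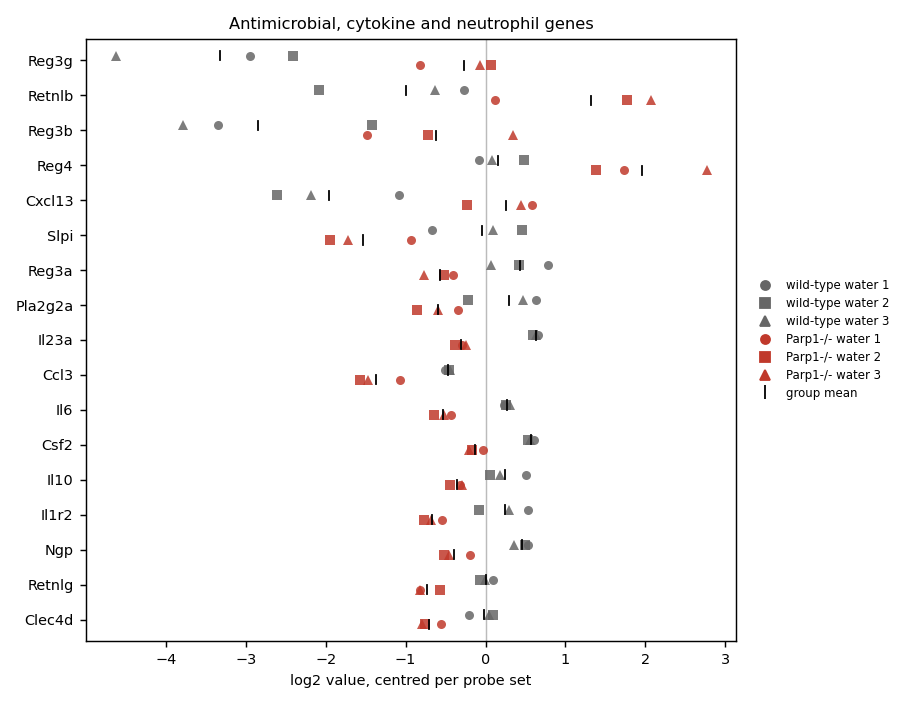
Log2 values, centred per probe set, of 17 antimicrobial, cytokine and neutrophil genes in every array; grey symbols are wild-type mice, red symbols Parp1-/- mice, black ticks group means. Reg3g, Retnlb, Reg4 and Cxcl13 are higher in the Parp1-/- arrays, and Slpi, Reg3a, Il23a, Ccl3, Il6 and the neutrophil genes are lower, with Slpi at a difference of -1.49.

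Interferon response genes were largely uncalled, with 1 of 20 higher and 1 lower (background 21.2% and 12%) and a median of -0.27 (-0.77 after quantile normalization). Oasl1, which limits interferon production, was at -1.89, -2.51 and -2.02 against 0.09, -0.35 and -0.09 (2.02 ± 0.22), and its relative Oas2 was lower at -0.71 ± 0.16. Oasl1 was not called after quantile normalization or after the subtraction. MHC class II genes had 2 of 12 higher and 2 lower. H2-Ab1, a class II chain, was at -2.61, -2.27 and -3.01 against -0.23, 0.29 and -0.01, a difference of 2.64 ± 0.24 (adjusted p = 0.000453), while the co-stimulator Cd86 was lower at -0.69. The list of the immunoproteasome and MHC class I had 6 of 17 higher and 1 lower. Psme2, a subunit of the interferon-induced proteasome activator, was the lower one, at 1.60, 0.76 and 1.22 against 0.03, -0.15 and -0.01 (-1.23 ± 0.23).

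Counts for immune cell types are set against 21.2% higher and 12% lower over all genes. B and plasma cell genes had 4 of 17 higher and none lower, near that share. Ighm, the heavy chain of IgM, was at -1.42, -1.17 and -1.10 against 0.38, 1.08 and 0.80 (1.98 ± 0.22), and Xbp1, which plasma cells and secretory epithelium both need, differed by 1.89 ± 0.23. T and NK cell genes had 3 of 18 lower and none higher: Cd3d, a chain of the T cell receptor complex, was at 0.38, 0.99 and 0.87 against 0.02, -0.20 and -0.27 (-0.89 ± 0.21), Cd28 differed by -0.70 and the NK receptor Ncr1 by -0.65. Cd3e, another chain of that complex and the defining marker, was at -1.42, -0.34 and -0.60 against 0.01, -0.69 and -0.80 and was not called, at 0.30 ± 0.33. Macrophage genes had 2 of 19 higher, the complement gene C1qb at 1.62 and Mertk at 1.06, with Adgre1 not called at 0.65 ± 0.31. Mast cell and eosinophil genes had 1 of 15 higher, the receptor Kit at 2.19, which interstitial cells of Cajal also make, and 3 lower, led by the protease Mcpt1 at -0.79. After the subtraction Ighm, Xbp1, C1qb and Kit were not called, and Mertk turned to -0.40.

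In the muscle wall and stroma the Parp1-/- mice differed among themselves. Of 20 smooth muscle genes 4 were called higher, near the 21.2% found over all genes. A difference above 0 was found for 19 of them, where 46.5% of all genes had one, and the median was 1.86. Acta2, the defining actin, was at -0.49, -0.14 and 0.13 in wild type and at -0.61, 3.75 and 3.74 in Parp1-/-. Myh11, its myosin, was at -1.12, 0.11 and -0.82 against -0.40, 4.09 and 4.15. In both genes Parp1-/- water 1 lay among or near the wild-type arrays, and neither was called, at 2.46 ± 1.07 and 3.22 ± 1.13. The called gene Tagln was at -0.67, -0.63 and -0.87 against -0.27, 3.66 and 3.27 (2.94 ± 0.92), and Actn1, an actin crosslinker, differed by 2.23. With Parp1-/- water 1 alone the list median was 0.03 and no gene was called. Tagln was not called after quantile normalization or after the subtraction. Fibroblast genes had 3 of 24 called higher, below the share over all genes. Their median of 1.12 turned to -0.09 with Parp1-/- water 1 alone, to 0.56 after quantile normalization and to -0.34 after subtraction of the housekeeping mean. Col1a1, a chain of the main fibrous collagen, was at -0.65, 0.17 and -0.59 against -0.56, 2.41 and 2.28 and was not called.

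The same 2 mice led other wall cells. Against 21.2% higher and 12% lower over all genes, endothelium had 1 of 18 genes higher and 1 lower. Pecam1, the defining marker of endothelium, was at -0.05, 0.16 and -0.20 against -0.25, 1.08 and 0.57. The endothelium median of 0.59 turned to -0.17 with Parp1-/- water 1 alone and to -0.87 after subtraction of the housekeeping mean. Enteric neurons and glia had 1 of 19 higher, Snap25 at 1.55, and a median of 0.03. Interstitial cells of Cajal, the pacemakers of gut movement, had 3 of 6 higher and a median of 0.75 (-0.71 after subtraction), with Gja1 at 1.60 beside Kit. Adipocyte genes had 1 of 13 higher, Pparg at 1.54, a receptor that colonocytes also express, and mesothelium had 1 of 8, the keratin Krt19 at 1.58, which belongs to the colonocyte list as well. None of Snap25, Gja1, Pparg and Krt19 was called after the subtraction. Squamous epithelium, which lines the anal end, had 5 of 14 lower (background 12%) and none higher, with the desmosomal cadherin Dsg3 at -1.07 and Krt4 at -0.78. Genes of organs other than the gut, most of which the colon should hardly use, had 6 of 33 lower and 1 higher, with a median of -0.39. The higher gene was again Snap25, which is also in the list of enteric neurons and glia.

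**Figure D4:**
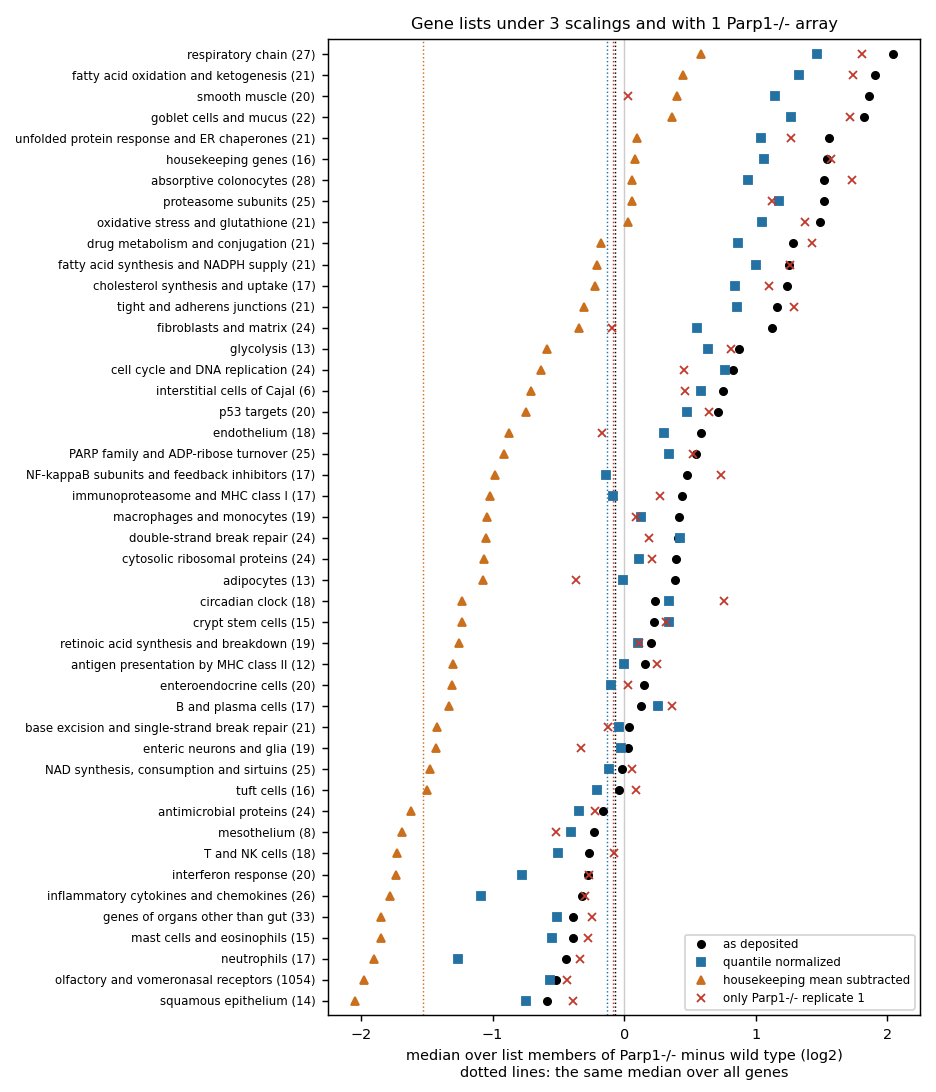
Median over the members of each gene list (members measured in brackets) of the log2 difference Parp1-/- minus wild type, on the deposited scale (black), after quantile normalization (blue), after subtraction of each array's housekeeping mean (orange) and with Parp1-/- water 1 as the only Parp1-/- array (red); dotted lines are the same medians over all genes. The respiratory chain has the highest median on the deposited scale, 2.05, and 0.59 after subtraction, and the smooth muscle median drops from 1.86 to 0.03 with 1 Parp1-/- array.

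Small RNA genes were examined after their values were seen, because several were among the largest differences. Small nucleolar RNAs guide chemical changes of ribosomal RNA and mostly lie in introns of genes for ribosomal and related proteins. Against 21.2% higher and 12% lower over all genes, 12 of 26 H/ACA genes (Snora) were higher and none lower, with a median of 0.83, and 15 of 46 C/D genes (Snord) were higher and 2 lower, with a median of 0.49. After subtraction of the housekeeping mean both medians turned, to -0.63 and -0.97. In Parp1-/- water 1 alone the Snora median was 0.47 and the Snord median turned to -0.06. Snora73a was at -2.57, -1.75 and -2.0 in wild type and at 1.08, 1.93 and 1.33 in Parp1-/-, a difference of 3.56 ± 0.29 (adjusted p = 0.000398). Snord82 was at -2.53, -2.42 and -2.73 against 1.11, 0.95 and 0.90 (3.54 ± 0.16). Both were also called in Parp1-/- water 1 alone, at 3.19 and 3.67. Snord19, at -0.98, and Snord16a, at -1.28, were the lower genes, and the call of Snord16a was lost after quantile normalization.

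MicroRNA genes were more often lower than higher: of 400 genes 119 were lower (29.8%, against 12% of all genes) and 17 higher (4.25%, against 21.2%), with a median of -0.42. The receptors of smell had a like median, -0.52. MicroRNA genes were taken by symbol, which also took in host genes such as Mir100hg and Mir1a-1hg. Under all 3 scalings 57 of the 400 microRNA genes were lower and 2 higher, Mir692-1 and Mir5099. Of all genes 6.79% were lower and 2.44% higher under the same 3 scalings. The receptors of smell had 208 of 1054 lower under them, so such genes were frequent there as well. Subtraction of the housekeeping mean lowers every difference, so these counts favour the lower genes. Mir692-1 was at -2.06, -3.02 and -3.03 in wild type and at 0.40, 0.39 and 0.39 in Parp1-/- (3.10 ± 0.27). Among the lower genes Mir181c was at 1.52, 1.05 and 0.77 against -0.12, -0.85 and -0.77 (-1.70 ± 0.27), Mir103-2 at 1.79, 1.04 and 1.70 against -0.39, 0.03 and 0.18 (-1.57 ± 0.25), and Mir128-2 at 1.20, 1.46 and 1.42 against -0.16, -0.01 and -0.11 (-1.45 ± 0.16). Mir335 differed by -1.28, and Mir669j by -1.87. An array of this kind reads the RNA of the microRNA gene, whose precursor and mature forms it may not separate.

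Mature sequences were sought in the RefSeq table of GRCm38.p6, with the entries of a chromosome left out. Of the 59 microRNA genes called under all 3 scalings 55 had a mature sequence there. These held 103 mature sequences with 99 different seeds, the bases 2 to 8 that pair with targets, and 3 seeds were shared by several of the genes. The sequences shown are 1 mature form each of leading genes and of genes that share a seed with them, 5′ to 3′ with the seed in capitals. The third shared seed, of the other forms of Mir103-2 and Mir107, is not shown.
miR-692: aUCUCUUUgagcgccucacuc
miR-181c-5p: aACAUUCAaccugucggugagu
miR-181b-5p: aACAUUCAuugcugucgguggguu
miR-181d-5p: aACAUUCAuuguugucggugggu
miR-103-3p: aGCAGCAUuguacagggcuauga
miR-107-3p: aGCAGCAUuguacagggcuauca
miR-128-3p: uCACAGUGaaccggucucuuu
miR-335-5p: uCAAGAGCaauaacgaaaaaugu
Mir181c, Mir181d and Mir181b-2 share the seed ACAUUCA and were all lower, Mir181d at -0.94 and Mir181b-2 at -0.90. On GRCm38.p6 miR-181c-5p lies at chr8:84178924-84178945 and miR-181d-5p at chr8:84178759-84178781, both on the minus strand and so next to each other. Other genes of that name differed in sign: Mir181a-1 was lower at -0.53 and Mir181a-2 higher at 0.71, neither called after quantile normalization, and Mir181b-1 was not called at -0.22. After subtraction of the housekeeping mean Mir181a-2 turned to -0.75. Mir103-2 (miR-103-3p at chr2:131288103-131288125, plus strand) shares the seed GCAGCAU with Mir107, which was lower at -0.81. The second copy of each mature sequence was not called: Mir103-1 was at -0.32 ± 0.20, and Mir128-1 at -0.20 ± 0.18.

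**Figure D5:**
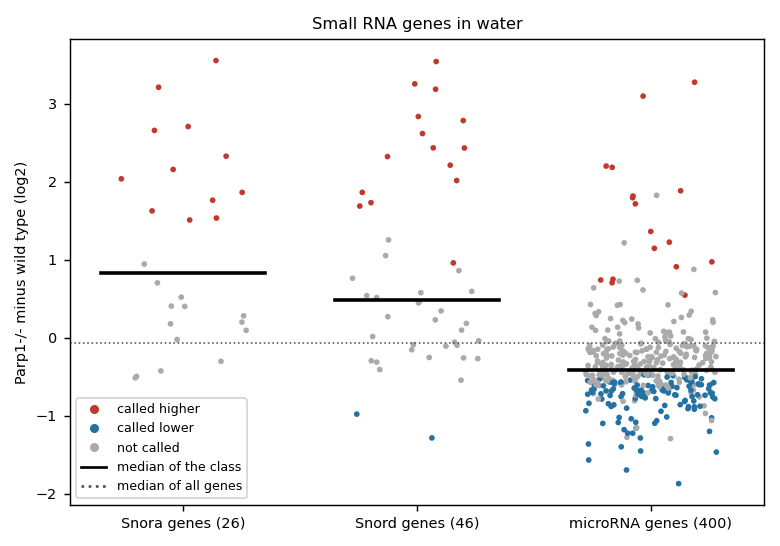
Log2 difference Parp1-/- minus wild type of every Snora, Snord and microRNA gene (1 point per gene, 26, 46 and 400 genes), coloured by call; black bars are class medians and the dotted line the median of all genes. Snora and Snord medians lie at 0.83 and 0.49 and the microRNA median at -0.42, and the Snora and Snord medians fall below 0 after subtraction of the housekeeping mean.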

How the data were processed

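Per the labels' protocols, biotin-labelled total RNA of whole mouse colon was read on Affymetrix arrays; no batch or date is named. The authors deposited 31693 probe sets by 12 arrays, on what was taken as a log2 scale, and every probe set had a median of 0 (within 5e-07) over those arrays. Software, background correction and normalization were not given in the sources used here. Log base and direction are assumptions. Without scanner files, signal over background is unknown. Probe sets were named from GEO's platform annotation: a single gene symbol was listed for 22586, several for 1756 and none for 7351, and 22406 of the first kind were found in a RefSeq table. Probe sets of a gene were averaged, giving 21314 genes, of which 1031 had several.

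Only the 6 water arrays, grouped by the labels, entered the model (limma 3.58.1, lmFit and eBayes, R 4.3.3), with Benjamini-Hochberg adjustment over all genes and a call at adjusted p under 0.05. The residual degrees of freedom were 4 and the prior ones 3.64. Replicate numbers only name mice. No 2 arrays held identical values. The fit was tested on simulated data with known differences. Figures used Python 3.11.15 with pandas 2.3.3 and matplotlib 3.10.9.

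The comparison, the 45 lists of named genes and the tests were chosen with earlier results of these data known, and the gene lists were given no test of their own. Named were Parp1, the 10 called genes of largest difference in each direction with groups that did not overlap (and the same among genes called under 3 scalings), up to 4 called members of each list or, with fewer than 2 called, the 2 of smallest p, called members opposite to the list median, all called PARP genes and defining markers. Predicted genes, small RNAs and receptor families were passed over in the ranking. The alternatives were quantile normalization, equal array medians, subtraction of the housekeeping mean, scaling by the median absolute deviation, all 12 arrays in 1 model, robust eBayes, array weights, every probe set on its own, an adjusted p under 0.01, a difference of at least 1, leaving out each array and keeping only Parp1-/- water 1.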

Additional observations from a re-analysis of the deposited data

Results flagged for a closer look

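Probe sets outside the gene comparison also carried differences between Parp1-/- and wild-type water arrays, tested with limma in the same way. Of 7351 probe sets with no gene symbol 512 were higher in Parp1-/- (6.97%) and 1721 lower (23.4%), with a median difference of -0.40. Of 1756 probe sets with several gene symbols 305 were higher (17.4%) and 284 lower (16.2%), with a median difference of -0.19. They were singled out because their signal lies outside the genes the report compares, and they name no gene.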

How the results depend on the processing

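The counts of higher and lower genes were 4519 and 2562 as reported. Subtraction of the housekeeping mean gave 540 higher and 16421 lower, scaling by the median absolute deviation 1058 lower, array weights 4350 lower, only Parp1-/- water 1 801 higher and 1 lower, an adjusted p under 0.01 2575 higher and 332 lower, and a difference of at least 1 230 lower. Leaving out 1 array gave 2834 to 4588 higher and 290 to 3273 lower, lowest without Parp1-/- water 2 (2834 and 312) or 3 (2920 and 290), with 1541 lower without Parp1-/- water 1. The other alternatives kept both counts within 1.5 times. Parp1 kept its sign, at -0.88 to -0.10 with 1 array left out, and was at -1.93 after the subtraction. Of 168 called genes named with values, 144 were called with the same sign after quantile normalization and 109 after the subtraction. The 109 includes genes called lower, which the subtraction could hardly undo. With only Parp1-/- water 1 most of the 168 were no longer called. The subtraction turned the sign of Adgre1 (-0.81), Adprhl2 (-0.60), Cd3e (-1.16), Chga (-0.47), H2ax (-0.50), Hpf1 (-0.52), Lgr5 (-1.28), Mertk (-0.40), Mir181a-2 (-0.75), Nadk (-0.16), Nadsyn1 (-0.13), Nnt (-0.26), Oard1 (-0.91), Parg (-0.10), Parp2 (-0.76), Pecam1 (-0.97), Polb (-0.58), Rel (-0.056), Rela (-0.080), Rnf168 (-0.38), Rnf8 (-0.34), Sirt1 (-0.46), Sirt2 (-0.42), Sirt7 (-0.91), Tiparp (-0.32) and Zc3hav1 (-0.74). Quantile normalization turned Rel (-0.14) and Cd3e (-0.61), scaling by the median absolute deviation Cd3e (-0.36) and array weights Cd3e (-0.073). With only Parp1-/- water 1, Acta2 (-0.44), Col1a1 (-0.21), Lgr5 (-0.0054), Ly6g (2.63) and Pecam1 (-0.23) turned. With 1 array left out Cd3e ran from -0.017, without the array labelled wild-type water 1, to 0.52, and Ly6g from -1.42 to 0.89, turning above 0 without wild-type water 3 (0.13), Parp1-/- water 2 (0.33) or 3 (0.89). The subtraction moves all differences down together. With the single Parp1-/- array a difference rests on that array alone, which lay apart from the other Parp1-/- arrays for Acta2 and Ly6g, as given above. The cause of these and the other changes was not tested. Of 46 list medians 39 kept their sign after quantile normalization and 21 after the subtraction. No paired analysis was possible because the replicate numbers follow the order of the samples and pair no mice. Brightness above background is unknown, so weak probe sets could not be set aside.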

Other observations

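Other gene families were chosen after their values were seen and are set beside the 21.2% of all genes called higher and 12% called lower. Bitter taste receptors had 7 of 21 genes lower and none higher, with a median difference of -0.48, and beta-defensins 12 of 38 lower and none higher, with a median of -0.50. Keratin-associated proteins of hair had 9 of 44 lower and 1 higher, with a median of -0.42, and predicted gene models 274 of 1108 lower and 33 higher, with the same median of -0.42. In all 4 families the median was also below 0 after quantile normalization (-0.52, -0.51, -0.48 and -0.48). Subtraction of the housekeeping mean lowers every difference, so a median below 0 was bound to stay there. It gave -1.94, -1.96, -1.88 and -1.88, beside -1.53 over all genes. The receptor genes of smell, at -0.52, had a similar median.

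Immunoglobulin kappa segments, which plasma cells express, had 7 of 14 genes higher and none lower (background 21.2% and 12% of all genes). Their means per array were -0.29, -0.37 and -0.64 in wild type and 0.12, 1.45 and 0.98 in Parp1-/-, so both muscle-rich Parp1-/- arrays were highest. The median difference was 1.19, 0.83 after quantile normalization and -0.27 after subtraction of the housekeeping mean, and no segment was called with Parp1-/- water 1 alone. These segments are close copies of each other, so signal could be shared between them.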
